A study of Mus musculus with 8 samples.

Results

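The genes described here are 10 genes that T cells are known to induce when their antigen receptor is engaged: the nuclear receptors Nr4a1, Nr4a2 and Nr4a3, the zinc finger factors Egr1, Egr2 and Egr3, the surface marker Cd69, and the transcription factors Irf4, Myc and Irf8. They were chosen by name out of 22180 genes on the arrays that carried a single symbol, with earlier results of these data known. Counts of members set beside shares of all genes are therefore a description and no test. All 10 passed the filter on low values that 13508 genes passed. A gene was represented by its brightest transcript cluster, the set of probes summarised to 1 value. Each member had 1 such cluster except Irf8, which had 2.

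The RNA came from CD4+CD25- T cells sorted from the spleens of C57BL/6 mice aged 6 to 8 weeks, either wild type or CCR2-/-, which lack the chemokine receptor CCR2. The cells were split into CD45RBhigh cells, a phenotype of naive T cells, and CD45RBlow cells, a phenotype of cells that have met antigen. All 4 groups were stimulated on plates coated with antibodies to CD3 and CD28, so every value here is from stimulated cells and none from resting ones. The protocols of the samples give 48 h of stimulation and the description of the series gives 2 h, and the labels do not settle which applied. Each of the 4 groups had 2 arrays, numbered 1 and 2. The labels name neither the number of mice, whether mice were pooled, nor how CCR2 was inactivated, so every p-value measures the spread between these particular samples.

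NR4A and EGR genes are immediate-early genes: the calcium, NFAT and MAP kinase signals that follow the T cell receptor start their transcription without new protein synthesis, and their transcripts are short-lived. NR4A proteins are orphan nuclear receptors that restrain T cell responses and take part in the differentiation of regulatory T cells. EGR2 and EGR3 restrain activation in T cells and are linked to anergy, while EGR1 is linked more to activation. CD69 keeps activated cells in lymphoid tissue, IRF4 is raised with the strength of the receptor signal, MYC drives growth, and IRF8 is best known from B cells and dendritic cells but is also induced in activated T cells.

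Values are log2 expression values from RMA, which normalises probe intensities across arrays before it summarises them. On this scale 1 unit is a factor of 2. Levels of different genes cannot be set against each other. T cell identity was clear on all arrays, with Cd3e at 12.32 to 12.76 and Cd4 at 11.54 to 11.74, while Lyz2 of myeloid cells (3.75 to 4.03) and Itgax of dendritic cells (3.93 to 4.14) were near the floor. Other markers were brighter, with Cd68 of macrophages at 6.88 to 8.55, Ly6c2 of monocytes at 8.01 to 9.27, Cd209a of dendritic cells at 7.64 to 8.16 and Cd8b1 of CD8 T cells at 6.97 to 8.78. The 2 arrays of a group correlated across all clusters at r = 0.984 to 0.994, and array medians lay between 4.92 and 5.05. The arrays numbered 1 and those numbered 2 differed in the sex-linked gene Xist (4.45 to 5.02 against 11.74 to 12.07), in every group alike, so the 2 arrays of a group did not hold the same RNA. The Y-linked gene Kdm5d ranged from 8.83 to 9.13 on arrays numbered 1 and from 7.58 to 7.78 on arrays numbered 2. The part of sex in the differences between the numbers was not tested. Of 9 markers of regulatory T cells 4 were called higher in CD45RBlow cells, Foxp3, Ikzf2, Ctla4 and Gpr83, beside 1.1% of all genes tested. Their list mean ran from 8.06 to 8.81 on CD45RBlow arrays and from 7.33 to 7.61 on CD45RBhigh arrays. Markers of B cells were lower in CD45RBlow cells on average, with 1 of 6 tested called (Ighm), or 2 with the replicate block (Fcer2a added), and their list mean ran from 5.28 to 5.40 against 5.64 to 6.96. Macrophage and monocyte markers (2 of 8 tested, 7.44 to 7.96 against 7.77 to 8.91) and CD8 T cell markers (2 of 2 tested, 5.80 to 5.93 against 6.16 to 6.84) had medians of -0.53 and -0.55. None of these was called, and with the block 1 of each was, Cd68 (-0.53) and Cd8b1 (-0.92). Dendritic cell markers (3 of 8 tested, 5.93 to 6.20 against 6.20 to 6.47) and NK cell markers (3 of 5 tested, 4.50 to 4.63 against 4.66 to 5.02) had no call in either fit. The part of any of these cell types in the differences below was not tested. In bulk RNA, fewer cells that express a gene and less RNA of it per cell cannot be told apart.

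How the sorted populations differed was asked by comparing CD45RBlow with CD45RBhigh cells over both genotypes together. Egr2 rose and Nr4a3 fell in CD45RBlow cells, and no other of the 10 genes was called in the main model. That model leaves out the replicate number. Nr4a1 had the largest difference but missed the threshold in the main model. It passed with the replicate number as a block and with a variance trend. A gene is called where its adjusted p in limma, a linear model over all 8 arrays with Benjamini-Hochberg adjustment over the 13508 genes, is under 0.05. In this comparison 3.03% of all genes tested were called, against 2 of the 10 members (1.1% were called higher and 1.93% lower in CD45RBlow cells). At an unadjusted p under 0.05 in limma there were 5 members, Nr4a1, Nr4a3, Egr2, Irf4 and Irf8, and 18.1% of all genes. The median difference of the members was -0.20 on the log2 scale, beside -0.0078 over all genes tested. Of the 10 genes, 8 had a lower and 2 a higher mean in CD45RBlow cells.

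**Figure D1:**
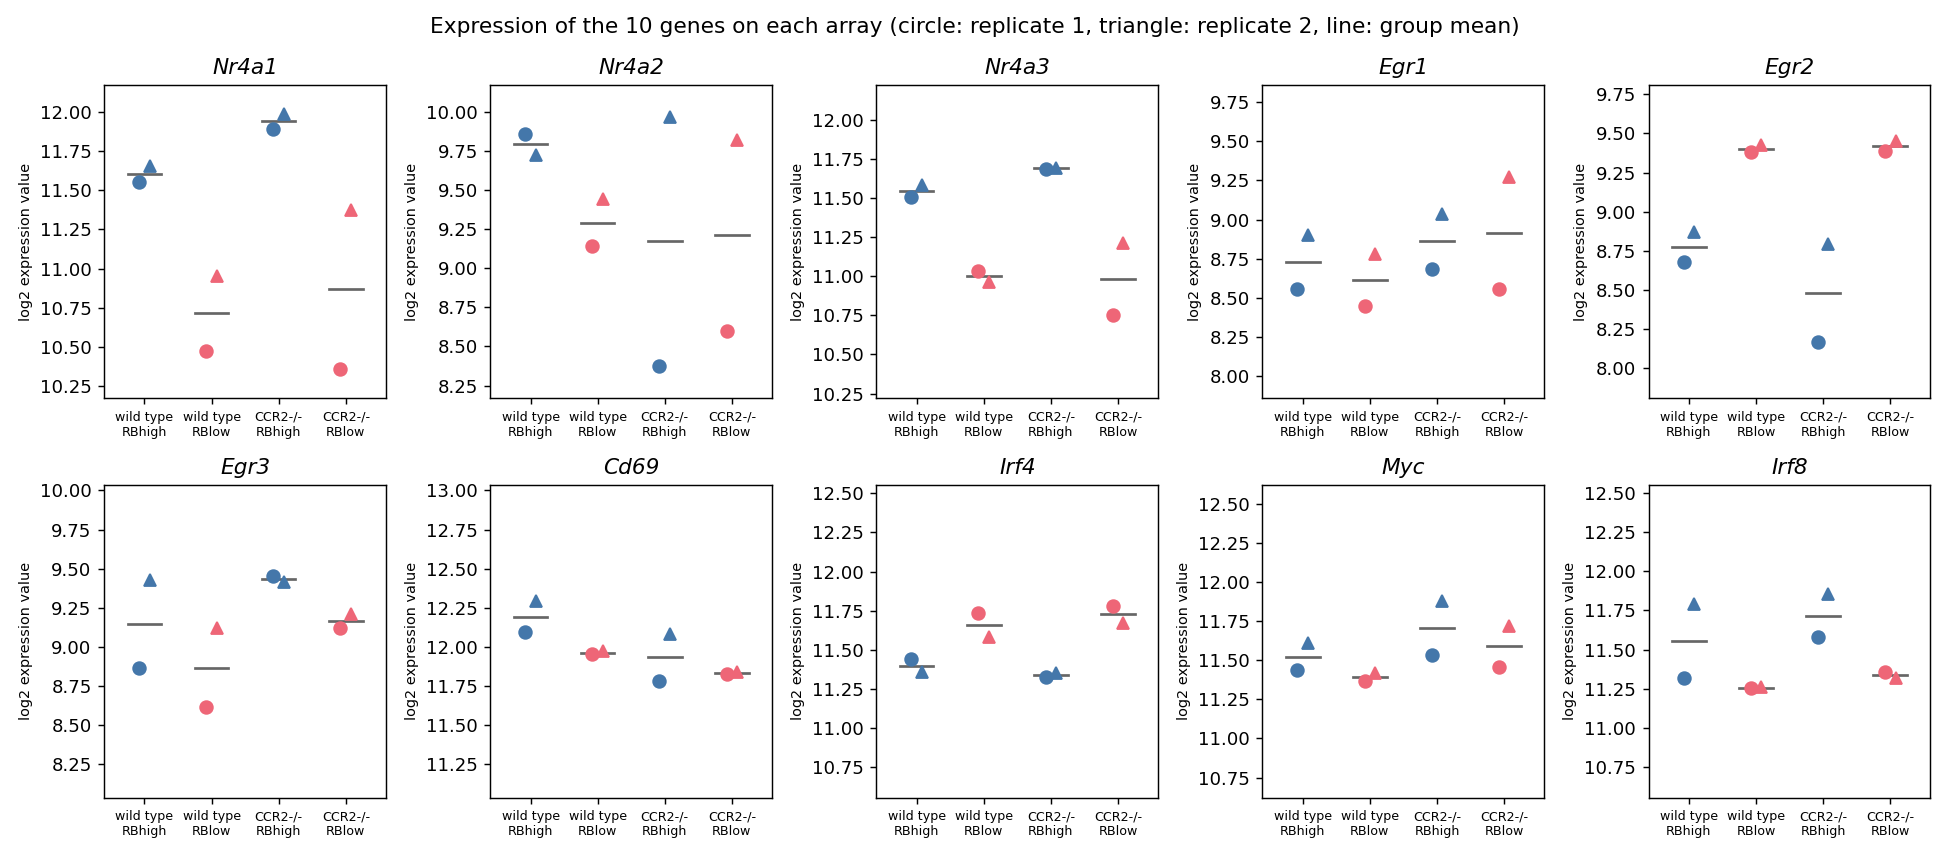
Log2 expression value of each of the 10 genes on each of the 8 arrays, in 4 groups of 2 (blue, CD45RBhigh; red, CD45RBlow; circles, replicate 1; triangles, replicate 2; lines, group means); each vertical axis spans 2 log2 units, placed for each gene, and does not start at 0. Red and blue points are separate for Nr4a1, Nr4a3, Egr2 and Irf4, while Nr4a2 spreads widely between the 2 CCR2-/- arrays of either subset.

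Nr4a1, which encodes NUR77, a usual reporter of T cell receptor signals, was at 11.55 and 11.65 in wild-type CD45RBhigh cells and at 10.48 and 10.95 in wild-type CD45RBlow cells. In CCR2-/- cells it was at 11.89 and 11.98 in CD45RBhigh and at 10.36 and 11.38 in CD45RBlow (log2 values, replicate 1 then 2). Every CD45RBlow array lay below every CD45RBhigh array, and the CD45RBlow arrays were the more scattered. The averaged difference was -0.98 (95% confidence interval -1.49 to -0.47, adjusted p = 0.0625 in limma), a factor of 1.97, and CD45RBlow was lower in 4 of 4 pairs of the same genotype and number. With the replicate number as a block the adjusted p was 0.0198, and 5.61% of all genes were called. It was 0.0498 in limma with a variance trend, where 467 of all genes were called. Of 7 other settings on all arrays these 2 passed, and in the rest the adjusted p in limma was as high as 0.086. Over the 8 fits without 1 array the difference ran from -1.23 to -0.73. The difference was -0.89 in wild type and -1.07 in CCR2-/- cells. The group means fell in the order CCR2-/- CD45RBhigh, wild-type CD45RBhigh, CCR2-/- CD45RBlow, wild-type CD45RBlow, of which the last 2 overlapped.

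Nr4a3, encoding NOR1, showed the tightest groups of the family. It was at 11.50 and 11.58 in wild-type CD45RBhigh cells and at 11.04 and 10.96 in wild-type CD45RBlow cells. In CCR2-/- cells it was at 11.68 and 11.69 in CD45RBhigh and at 10.75 and 11.21 in CD45RBlow. The lowest CD45RBhigh value, 11.50, stood above the highest CD45RBlow value, 11.21. Nr4a3 fell by 0.63 on the log2 scale, a factor of 1.54 (interval -0.89 to -0.37, adjusted p = 0.0332 in limma), in 4 of 4 pairs. The 2 CCR2-/- CD45RBlow arrays differed by 0.46, the widest gap within a group for this gene. The call ended when any single array other than CCR2-/- CD45RBlow replicate 2 was left out (adjusted p = 0.0503 to 0.155), with differences from -0.74 to -0.51 over the 8 such fits.

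Nr4a2, encoding NURR1, varied more between replicate numbers than between subsets. In wild type it was at 9.86 and 9.73 in CD45RBhigh cells and at 9.14 and 9.44 in CD45RBlow cells. In CCR2-/- cells replicate 1 was at 8.38 in CD45RBhigh and 8.60 in CD45RBlow, and replicate 2 was at 9.96 and 9.82. Both CCR2-/- arrays numbered 1 were thus lower than all other arrays, and replicates 1 and 2 differed by 1.59 in CCR2-/- CD45RBhigh and by 1.22 in CCR2-/- CD45RBlow. The averaged subset difference was -0.23, with an interval from -1.12 to 0.66 that leaves differences as large as that of Nr4a1 possible (adjusted p = 0.826 in limma).

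The 3 NR4A promoters are shown because they share a feature that the choice of genes did not use. RefSeq's table for GRCm38.p6 held promoter windows of 300 bases, 250 before and 50 after a transcription start, for 6 of the 10 genes. Each NR4A window held 4 copies of the letters TGACG on either strand, the half-site of the cAMP response element, which CREB and ATF proteins are known to bind. Of the 32851 windows 20.8% held at least 1 copy and 0.231% held at least 4. The cut at 4 is the number these 3 windows hold, and windows were not matched for base content. These shares are therefore a description and no test. Nr4a1 and Nr4a2 are given as the 250 bases before the start, and Nr4a3 as 3 stretches of 30 bases around its half-sites. Capitals mark the half-sites, and the orientation is 5′ to 3′ on the gene's strand.
Nr4a1 chr15:101266596-101266845, plus strand: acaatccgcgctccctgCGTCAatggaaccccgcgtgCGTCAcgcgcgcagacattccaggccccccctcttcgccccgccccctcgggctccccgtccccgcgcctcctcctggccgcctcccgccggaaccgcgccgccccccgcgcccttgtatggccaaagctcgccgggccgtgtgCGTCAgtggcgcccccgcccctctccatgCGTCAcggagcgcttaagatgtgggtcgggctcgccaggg
Nr4a2 chr2:57124004-57124253, minus strand: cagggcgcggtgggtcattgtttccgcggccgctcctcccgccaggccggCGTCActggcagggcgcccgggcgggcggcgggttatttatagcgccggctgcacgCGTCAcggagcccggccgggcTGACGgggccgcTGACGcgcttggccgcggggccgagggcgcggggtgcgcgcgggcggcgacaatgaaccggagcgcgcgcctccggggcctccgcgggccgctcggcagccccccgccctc
Nr4a3 chr4:48045070-48045099, plus strand: agggTGACGtagcgtcccatgtCGTCAcat
Nr4a3 chr4:48045098-48045127, plus strand: atTGACGtctcgcattccaggcactctatg
Nr4a3 chr4:48045145-48045174, plus strand: cctgtggcataaaTGACGtgccgagagagc

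A match is a description of the letters and does not show that a factor bound there in these cells.

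Among the EGR genes, Egr2 rose in CD45RBlow cells. It was at 8.68 and 8.87 in wild-type CD45RBhigh cells and at 9.38 and 9.43 in wild-type CD45RBlow cells. In CCR2-/- cells it was at 8.17 and 8.79 in CD45RBhigh and at 9.39 and 9.45 in CD45RBlow. The 4 CD45RBlow arrays fell within 9.38 to 9.45, while the CD45RBhigh arrays spread from 8.17 to 8.87, so the groups did not overlap. Egr2 rose by 0.79 on the log2 scale, a factor of 1.72 (interval 0.46 to 1.11, adjusted p = 0.0339 in limma), in 4 of 4 pairs. The difference was 0.63 in wild type and 0.94 in CCR2-/- cells (adjusted p = 0.352 and 0.112 in limma; 0.172 and 0.0474 with the replicate block). The averaged call remained without either CCR2-/- CD45RBhigh array (adjusted p = 0.0214 without replicate 1 and 0.0071 without replicate 2) and ended without any one of the other 6 arrays (adjusted p = 0.0854 to 0.159), with differences from 0.63 to 0.94.

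Egr3, which acts with Egr2 in T cells, went the other way by a smaller amount. It was at 8.86 and 9.43 in wild-type CD45RBhigh, 8.62 and 9.12 in wild-type CD45RBlow, 9.46 and 9.42 in CCR2-/- CD45RBhigh, and 9.12 and 9.21 in CCR2-/- CD45RBlow cells. CD45RBlow was lower in 4 of 4 pairs, by 0.20 to 0.33, but the ranges of the subsets overlapped. The averaged difference was -0.27 (interval -0.64 to 0.09, adjusted p = 0.422 in limma). The wild-type arrays numbered 1 were lower than those numbered 2 by 0.56 in CD45RBhigh and by 0.50 in CD45RBlow, more than the subsets differed.

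Egr1 had nearly the same mean in both subsets, 8.79 in CD45RBhigh and 8.76 in CD45RBlow cells. Its values were 8.56 and 8.90 in wild-type CD45RBhigh, 8.45 and 8.78 in wild-type CD45RBlow, 8.69 and 9.03 in CCR2-/- CD45RBhigh, and 8.56 and 9.27 in CCR2-/- CD45RBlow cells. Replicate 2 was above replicate 1 in all 4 groups, by 0.34 to 0.72, and all 4 groups overlapped their neighbours in level. The averaged subset difference of -0.029 had an interval from -0.46 to 0.40.

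Members of a family were also compared with each other, by the change of 1 gene less the change of the other on the same arrays. This comparison was chosen after the values were seen, so its p-values describe these arrays and are no independent support. The exact permutation test over all 70 splits of the 8 arrays into 4 and 4 (two-sided) can give no p below 0.0286. Egr2 and Egr3 changed unequally by 1.06 (exact p = 0.0286, adjusted p = 0.0667 over the 7 pairs of genes within a family), and Egr2 and Egr1 by 0.82 (exact p = 0.0286, adjusted p = 0.0667). Both have the smallest p the test allows and the same sign in 4 of 4 pairs of arrays. Neither passed after adjustment, which with so few splits does not show that the changes were equal. These splits leave genotype and replicate number out of account. With labels exchanged only within the 4 pairs of the same genotype and number there are 16 arrangements, no exact p can be below 0.125, and Egr2 against Egr3 and against Egr1 both had that p (adjusted p = 0.146). Nr4a1 and Nr4a2 differed by -0.75 (exact p = 0.0571, adjusted p = 0.1), Nr4a1 and Nr4a3 by -0.35 (exact p = 0.114) and Nr4a3 and Nr4a2 by -0.40 (exact p = 0.514). The unequal change of Irf4 and Irf8 was 0.66 (exact p = 0.0286, adjusted p = 0.0667; exact p = 0.125 within pairs).

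**Figure D2:**
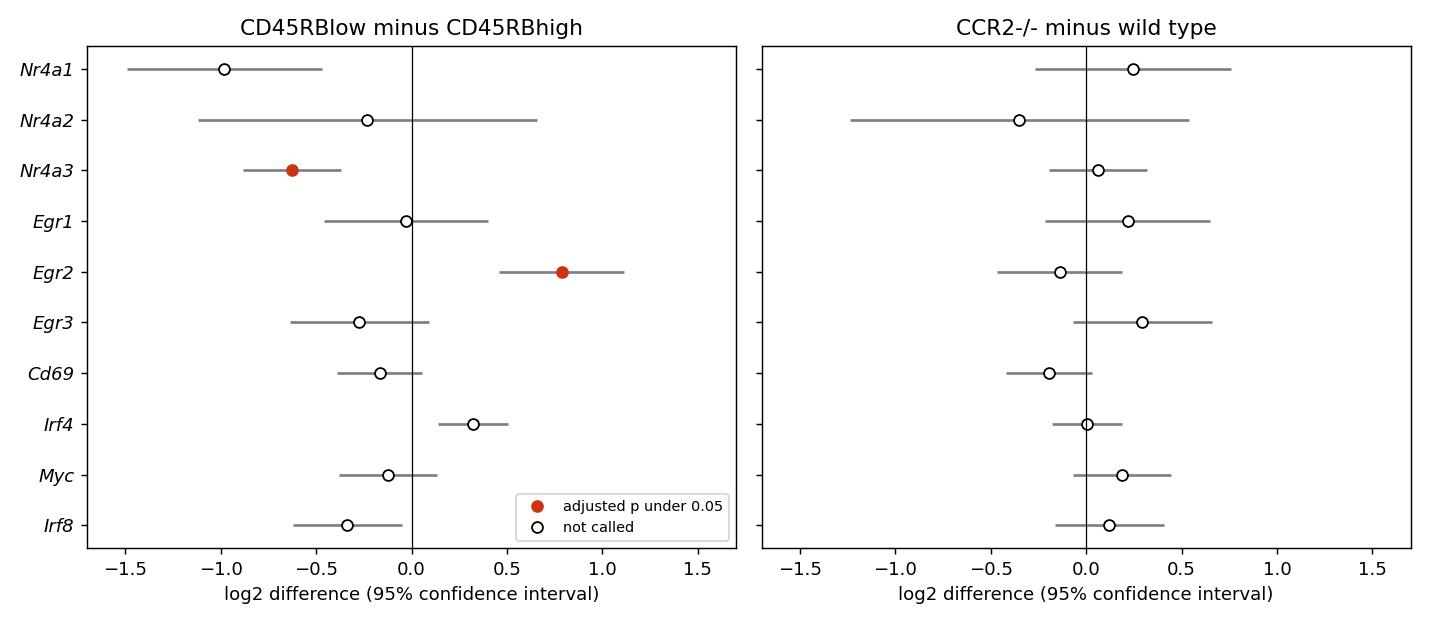
Averaged log2 differences of the 10 genes with 95% confidence intervals from limma; left, CD45RBlow minus CD45RBhigh, right, CCR2-/- minus wild type; filled red points are genes with adjusted p under 0.05. Nr4a3 lies at -0.63 and Egr2 at 0.79 on the left, and all 10 intervals on the right include 0.

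The promoter windows of Egr2 differed from those of the NR4A genes. Of its 5 windows, which belong to several start sites and overlap in part, 4 held a CArG box, the site of serum response factor, a known activator of EGR genes, and 3 held TGACG. In 3 of the windows the box and the TGACG copies are the same bases, counted again in each. Of all windows 1.63% held a CArG box, and setting the counts beside this share is a description and no test. The 30 bases around the box that 3 of the windows share are given because they also hold a half-site, with both in capitals.
Egr2 chr10:67537793-67537822, plus strand: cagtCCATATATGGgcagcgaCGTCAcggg

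The windows of Irf4 and Irf8 held neither motif. Egr1, Egr3, Cd69 and Myc had no window in the table.

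Cd69, an early surface marker of activation, was at 12.10 and 12.29 in wild-type CD45RBhigh, 11.95 and 11.97 in wild-type CD45RBlow, 11.78 and 12.09 in CCR2-/- CD45RBhigh, and 11.83 and 11.84 in CCR2-/- CD45RBlow cells. It was lower in CD45RBlow cells in 3 of 4 pairs, and the subsets overlapped. The difference was -0.17 (interval -0.39 to 0.06, adjusted p = 0.424 in limma). These are transcript levels, which need not follow the amount of protein on the surface.

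Irf4 moved in the same direction as Egr2 by a smaller step. It was at 11.44 and 11.36 in wild-type CD45RBhigh, 11.74 and 11.58 in wild-type CD45RBlow, 11.33 and 11.35 in CCR2-/- CD45RBhigh, and 11.78 and 11.67 in CCR2-/- CD45RBlow cells. All CD45RBlow arrays were above all CD45RBhigh arrays, and CD45RBlow was higher in 4 of 4 pairs. The difference was 0.32, a factor of 1.25 (interval 0.14 to 0.51), which did not pass (adjusted p = 0.0790 in limma, 0.0541 with the replicate block).

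Irf8, the related factor, had lower values in CD45RBlow cells. It was at 11.32 and 11.79 in wild-type CD45RBhigh, 11.25 and 11.26 in wild-type CD45RBlow, 11.58 and 11.85 in CCR2-/- CD45RBhigh, and 11.36 and 11.32 in CCR2-/- CD45RBlow cells. The CD45RBlow arrays lay within 11.25 to 11.36 and the lowest CD45RBhigh array, at 11.32, fell among them. The difference was -0.34 (interval -0.62 to -0.05, adjusted p = 0.196 in limma). Irf8 is a gene of B cells and dendritic cells too, and the list means of both were also lower in CD45RBlow cells. The gap of the B cell list was -1.31 over the arrays numbered 1 and -0.36 over those numbered 2, and that of the dendritic cell list was -0.18 and -0.31. The lists of macrophages and monocytes (-0.70 and -0.36), CD8 T cells (-0.79 and -0.31) and NK cells (-0.28 and -0.13) were lower too. Those of CD4 T cells (0.014 and 0.12) and regulatory T cells (1.21 and 0.86) were higher. The gap of Irf8 was -0.06 and -0.22 in the pairs numbered 1 and -0.53 and -0.53 in those numbered 2. The part of any of these cell types in the difference of Irf8 was not tested. The second cluster of Irf8 was dim, at 5.16 to 5.81.

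Myc differed little between subsets. It was at 11.44 and 11.61 in wild-type CD45RBhigh, 11.36 and 11.42 in wild-type CD45RBlow, 11.53 and 11.88 in CCR2-/- CD45RBhigh, and 11.46 and 11.72 in CCR2-/- CD45RBlow cells. CD45RBlow was lower in 4 of 4 pairs, by 0.07 to 0.19. The averaged difference of -0.12 had an interval from -0.38 to 0.14 (adjusted p = 0.641 in limma).

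**Figure D3:**
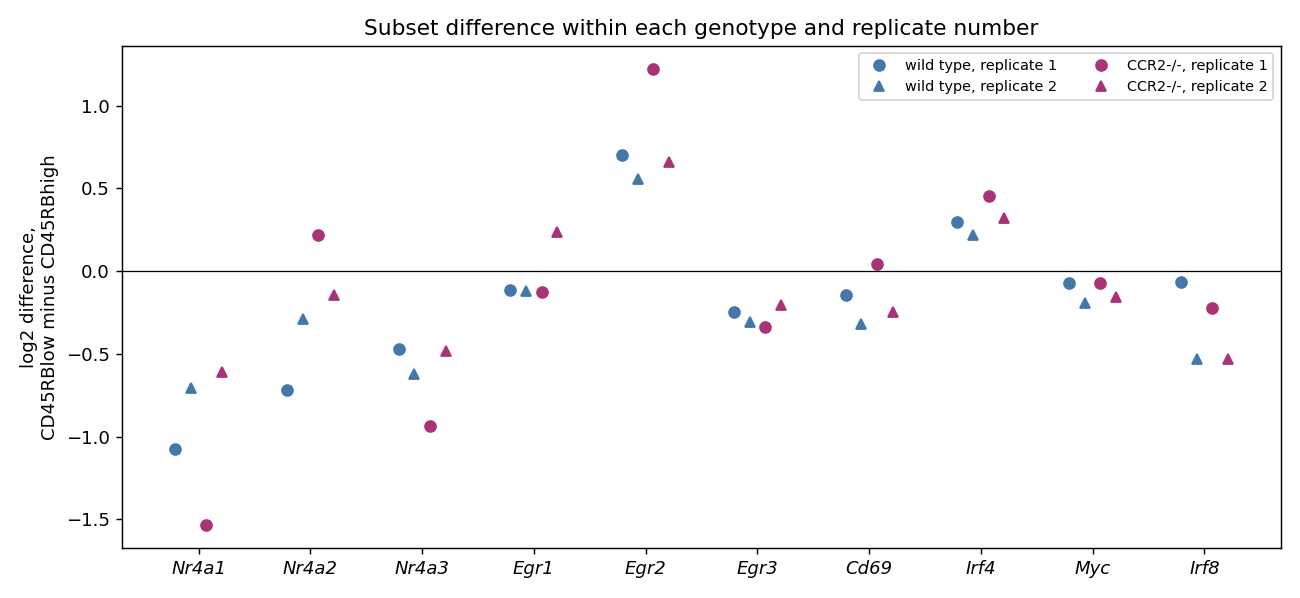
Log2 difference CD45RBlow minus CD45RBhigh of each gene within each genotype and replicate number (blue, wild type; purple, CCR2-/-; circles, replicate 1; triangles, replicate 2). Nr4a1, Nr4a3, Egr3, Myc and Irf8 are below 0 in all 4 pairs and Egr2 and Irf4 above 0 in all 4, and the CCR2-/- pair numbered 1 has the largest gap for Nr4a1 (-1.53), Nr4a3 (-0.94) and Egr2 (1.22).

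Of the members 4, Nr4a1, Nr4a3, Egr2 and Irf4, had subsets that did not overlap on the 4 and 4 arrays, and 14.3% of all genes tested had such separate values. Lower CD45RBlow values of this kind were found for 2 members and 8.13% of all genes, and higher ones for 2 members and 6.13%. The same direction in 4 of 4 pairs held for 7 members: 5 lower and 2 higher in CD45RBlow cells. Over all genes tested, 18.7% were lower and 15.1% higher in 4 of 4 pairs.

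Within a single genotype no member was called. In wild type 4 of the 10 genes had an unadjusted p under 0.05, beside 9.22% of all genes tested, of which 0.0888% were called, or 0.77% with the replicate block. In CCR2-/- cells 4 genes had an unadjusted p under 0.05, beside 12.3% of all genes, of which 0.333% were called. There the replicate block called Egr2, beside 1.45% of all genes. The interaction, the test that the subset difference itself depended on genotype, called no member and 0% of all genes in limma with or without the block. No member had an unadjusted p under 0.05 for it (1.18% of all genes did), and the differences of the members ran from -0.18 to 0.54. With 2 arrays a group these intervals were wide, with a bound as far as 2.32 for Nr4a2, so dependence on genotype was not detectable at this number of arrays.

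The comparison of CCR2-/- with wild-type cells, averaged over subsets, called none of these genes. The differences ran from -0.35 for Nr4a2 to 0.29 for Egr3, with a median of 0.092 beside 0.020 over all genes. The smallest adjusted p was 0.940, no member had an unadjusted p under 0.05 (3.86% of all genes did), and limma called 0% of all genes with or without the replicate block. Cd69 was lower in CCR2-/- cells in 4 of 4 same-numbered pairs, with a difference of -0.19 (interval -0.42 to 0.03). Myc was higher in 4 of 4, by 0.19 (interval -0.07 to 0.45), and so were Egr1 (0.22, interval -0.21 to 0.65) and Irf8 (0.12, interval -0.16 to 0.41). Of all genes tested 6.35% were lower and 12.6% higher in all such pairs. In CD45RBhigh cells alone the differences ran from -0.62 to 0.34 and in CD45RBlow cells alone from -0.13 to 0.30, with no member called or at an unadjusted p under 0.05 in either. In limma 2.62% of all genes in CD45RBhigh and 2.21% in CD45RBlow cells had such a p, and 0% were called in either.

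The replicate number moved several members more than genotype did. The arrays numbered 2 were higher in all 4 groups for Nr4a1, Egr1, Egr2, Cd69 and Myc, beside 16.8% of all genes tested. The mean difference between the numbers was 0.42 for Nr4a1, 0.74 for Nr4a2, 0.44 for Egr1 and 0.21 for Myc. Since every group held both numbers, the gap between them adds to the spread inside the groups. Irf4 was the single member with a lower mean on the arrays numbered 2, with a difference of -0.080.

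Genes of the surrounding pathways were taken from lists of names, and none of the lists was tested as a set. The counts below stand beside 1.1% of all genes tested called higher and 1.93% called lower in CD45RBlow cells. Of 23 tested immediate-early and AP-1 genes, which share the early signals of NR4A and EGR genes, none was called and their median was -0.13 (2 were called without CCR2-/- CD45RBhigh replicate 1 and 1 without CCR2-/- CD45RBhigh replicate 2). Klf10 was nearest in p (0.51, adjusted p = 0.0700), followed by the MAP kinase phosphatase Dusp5 (-0.44, adjusted p = 0.0947). With the replicate block Fos (-0.77) and Dusp2 (-0.40) fell (adjusted p = 0.0426 and 0.0446 in limma), Fos at levels from 4.40 to 5.91, near the floor. Of 17 EGR cofactors and reported targets 1 was called: Fasl, the death ligand that EGR2 and EGR3 are known to induce, fell by 1.10 (adjusted p = 0.0152). The corepressor Nab2, itself an EGR target, differed by 0.019 and the ubiquitin ligase Cblb by -0.33 (adjusted p = 0.267), and the list's median was -0.0064. The call of Fasl was the list's single one, and 0 were called without replicate 1 of wild-type CD45RBhigh, wild-type CD45RBlow or CCR2-/- CD45RBlow, and 2 without CCR2-/- CD45RBhigh replicate 2. With the block Socs1 was also called (0.64, adjusted p = 0.0402).

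Over all genes tested 1.1% were called higher and 1.93% lower, with a median of -0.0078. Of 9 genes linked to NR4A proteins in T cells, with a median of 0.68, 0 were called lower and 4 higher. They were Foxp3, which specifies regulatory T cells (3.05, adjusted p = 0.0063), the inhibitory receptors Ctla4 (1.13, adjusted p = 0.0488) and Havcr2 (0.68, adjusted p = 0.0454), and Ikzf4, encoding EOS (0.68, adjusted p = 0.0436). Foxp3 and Ctla4 are also among the regulatory T cell markers, so these counts are not separate, and Havcr2 was dim at 4.51 to 5.52. The part of NR4A proteins in these differences was not tested. Without the filter on low values 1 of the 9 was called, and 2 with array weights. Leaving out a CD45RBlow array of either genotype and number, or wild-type CD45RBhigh replicate 2, left 1 called, and leaving out CCR2-/- CD45RBhigh replicate 1 left 2. Pdcd1, encoding PD-1, differed by 0.75 (interval 0.14 to 1.36, adjusted p = 0.185) and Tox by 0.062.

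Of 32 tested genes of the response to the T cell receptor and costimulation 1 was called higher and 1 lower, with a median of 0.035. Tnfsf8, encoding CD30 ligand, rose by 0.78 (adjusted p = 0.0392) and the signalling adaptor Traf1 fell by 0.87 (adjusted p = 0.0167). With the block Icos (0.58, adjusted p = 0.0164) and Cd83 (-0.58, adjusted p = 0.0408) were called too. Of the 2 calls, 0 were left without wild-type CD45RBhigh replicate 1, either wild-type CD45RBlow array or CCR2-/- CD45RBlow replicate 1, 1 without replicate 2 of wild-type CD45RBhigh or CCR2-/- CD45RBlow, and 4 genes were called without CCR2-/- CD45RBhigh replicate 2. Il2, at 11.14 to 12.68, differed by 0.28 (adjusted p = 0.690).

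MYC partners and targets were not called. Of 9 tested genes of the MYC dimerisation network none passed, with Mxd1 (-0.28, adjusted p = 0.418) and Mlxip (-0.11, adjusted p = 0.682) at the smallest p. Of 19 tested MYC targets none passed, with Nolc1 (0.27, adjusted p = 0.298) and Nme1 (0.26, adjusted p = 0.330) at the smallest p and a median of 0.14. Max, the obligate partner of MYC, differed by 0.075.

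Among 11 tested IRF genes and partners of IRF4 and IRF8, 2 were called higher and none lower. Prdm1, encoding BLIMP1, rose by 1.67 (adjusted p = 0.0059 in limma) and the Ikaros factor Ikzf3 by 1.28 (adjusted p = 0.0147). Irf7 had the largest difference of the list, -1.77 (interval -3.48 to -0.05), and was not called (adjusted p = 0.264). Its levels ran from 4.44 to 8.11. Irf9 differed by -0.69 (adjusted p = 0.148). Batf, which binds DNA together with IRF4, differed by 0.49 (adjusted p = 0.148), and the list's median was -0.052. The count of 2 was 1 without either wild-type CD45RBlow array or CCR2-/- CD45RBlow replicate 1, 4 without CCR2-/- CD45RBhigh replicate 1 and 3 without CCR2-/- CD45RBhigh replicate 2. Of 7 tested genes of lymphocyte egress and homing, Ccr7 (-0.94, adjusted p = 0.0303 in limma) and Klf3 (-0.80, adjusted p = 0.0382) were called lower. S1pr1, the receptor that CD69 holds back, differed by 0.20 (adjusted p = 0.644) at low levels, from 5.56 to 6.41. Of these 2 calls, 1 was left without either CCR2-/- CD45RBhigh array or wild-type CD45RBhigh replicate 1, and 0 without any of the other 5 arrays.

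**Figure D4:**
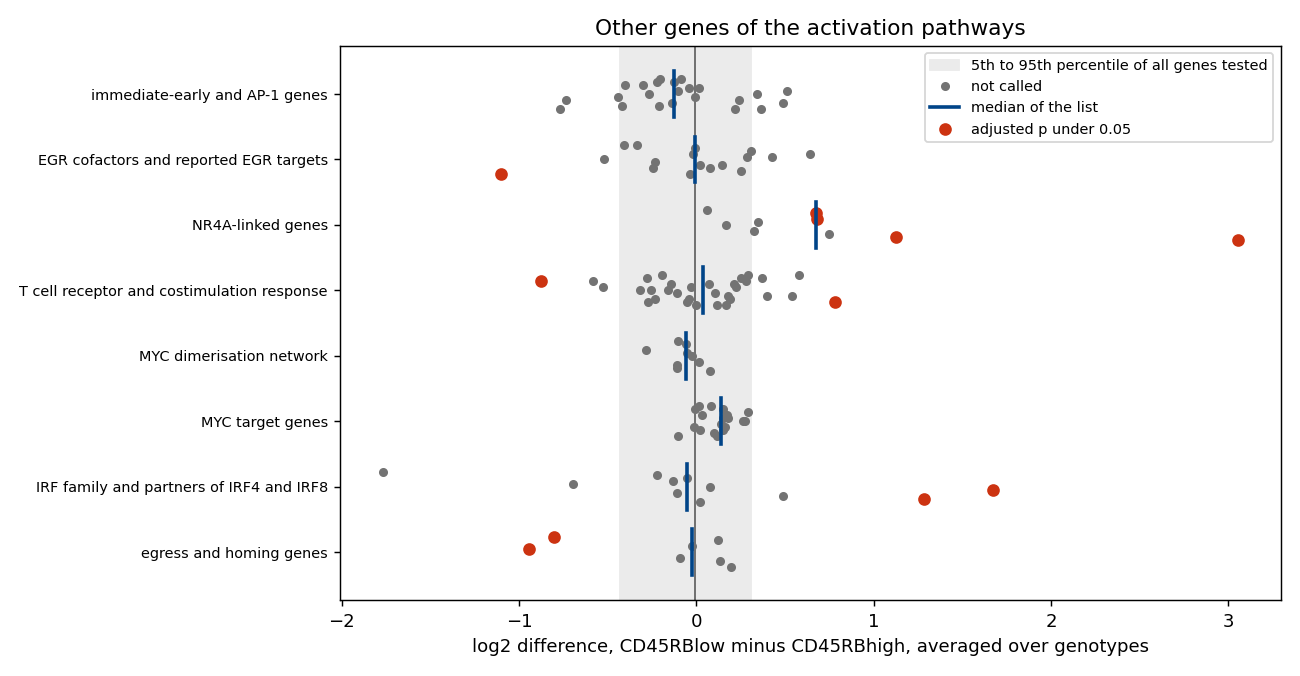
Averaged log2 difference CD45RBlow minus CD45RBhigh of the other genes of 8 lists, 1 point per tested gene (red, adjusted p under 0.05 in limma; blue bars, list medians; grey band, the 5th to the 95th percentile of all genes tested, -0.43 to 0.31). The NR4A-linked genes have the highest median, 0.68, and the medians of the other lists lie between -0.13 and 0.14.

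The genes most like the called members were found by the root mean square difference between log2 profiles over the 8 arrays, each centred on its own mean. For Nr4a3 these were Golgb1 (0.071), AU040320 (0.096) and Gramd1a (0.096), where the median over all genes was 0.361. Golgb1 was at a mean of 7.63 in CD45RBhigh and 6.95 in CD45RBlow cells. For Egr2 they were Gata3, the lineage factor of Th2 cells (0.101), Pmepa1 (0.106) and Ryk (0.107), where the median over all genes was 0.462. Gata3 was at a mean of 9.17 in CD45RBhigh and 9.91 in CD45RBlow cells, a difference of 0.73.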

How the data were processed

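The 8 arrays were single-colour Affymetrix whole-transcript arrays, labelled from 200 ng of total RNA per the labels' protocols. The deposited table holds log2 values for 41034 transcript clusters. Per the submitters' processing notes the authors used RMA and Partek. Versions, options and the build are not given in the sources used here. They ran from 3.07 to 13.92 and were used as deposited.

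Genes were named through the annotation of the platform's probes: of 25335 listed clusters 23521 had 1 symbol, and the brightest by mean over all 8 arrays stood for a gene. A gene was tested if it reached the 40th percentile of an array's clusters on 2 or more arrays. Limma 3.58.1 in R 4.3.3 fitted a mean for each of the 4 groups with default empirical Bayes settings (4 residual and 3.36 prior degrees of freedom), with 7 contrasts, two-sided and adjusted by Benjamini-Hochberg. The median standard error was 0.10 for averaged differences and 0.14 between groups of 2; the number of arrays limits the precision. The calculations were tested on simulated data with independent noise and changes of 1 or 2 log2 units. Those data held no smaller changes and no effect of the replicate number.

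The members and lists were chosen with earlier results of these data known. All members were named; other genes were the up to 4 largest called of each list, or the 2 with the smallest p where none was called, and the 3 genes nearest to a called member. Further list genes (Fos, Dusp2, Socs1, Icos, Cd83, Nab2, Cblb, Pdcd1, Tox, Il2, Max, Irf7, Irf9, Batf, S1pr1) were chosen after their values were seen. So was the comparison within families, to which the exchange within pairs was added.

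Samples with no number in the title were taken as replicate 1. Differences between replicates 2 and 1 were correlated across groups, with the 6 values of r from 0.11 to 0.53 over 13508 genes. All lay above the limit of 0.1 for pairing. The main model leaves this pairing out, so the replicate block is given where it changes a call. Alternatives were the block, other filters, the mean of clusters, a variance trend, array weights, quantile normalization, fits of 2 groups and leaving out each array.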

Additional observations from a re-analysis of the deposited data

How the results depend on the processing

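Of the 10 genes, 2 were called for the averaged subset difference, beside 409 of the 13508 genes tested. The replicate block called 3, with Nr4a1 added, beside 758 genes. A variance trend called 4, beside 467 genes, with Nr4a1 (adjusted p = 0.0498 in limma) and Irf4 (adjusted p = 0.0364 in limma) added. The 5 other settings on all arrays called 2, beside 352 genes without a filter to 486 genes with the filter at the 60th percentile. Leaving out 1 array leaves a group with 1 array and the fit with fewer residual degrees of freedom. In no such fit did the calls of Nr4a3 and Egr2 both hold. The averaged difference ran from -0.74 to -0.51 for Nr4a3 and from 0.63 to 0.94 for Egr2. The averaged difference of Nr4a2 ran from -0.63 to 0.16 over these fits and that of Egr1 from -0.21 to 0.15, so neither has a settled direction. All other members kept the sign of the averaged subset difference under every setting run. Within CCR2-/- cells the block called 1 member, and leaving out 1 array 0 to 1. With the block Egr2 was called there, and the block changed the call of no other member within either genotype.

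For the averaged genotype difference, leaving out 1 array turned the sign of Nr4a1 (-0.0083 to 0.50), Nr4a2 (-0.75 to 0.046), Nr4a3 (-0.053 to 0.18), Egr2 (-0.29 to 0.020) and Irf4 (-0.034 to 0.044), none of them called. Over all genes, 409 were called for the averaged subset difference, 758 with the block, and 39 to 524 without 1 array. In wild type 12 were called, 104 with the block, 31 with a variance trend, 116 with array weights, 36 from the wild-type arrays alone and 1 to 54 without 1 array. In CCR2-/- cells these counts were 45, 196, 69, 7, 9 and 1 to 84. The cause was not tested.

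The NR4A-linked genes called numbered 4, with 1 without a filter, 2 with array weights and 1 to 3 without 1 array. Levels near the floor, as for Fos and Havcr2, may understate differences.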
